A study of Mus musculus with 45 samples.

Results

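The integrins and laminins are the 37 mouse genes whose symbols name an integrin alpha chain (18 genes), an integrin beta chain (8 genes) or a laminin chain (11 genes), of 35675 genes for which reads were summed. They were followed in 45 bulk RNA-seq libraries that fall into 15 groups of 3. All groups have the genotype given as Tg:Pax7-nGFP/C57BL6;DBA2, in which nuclear GFP reports Pax7, the transcription factor that marks satellite cells. Untreated mouse embryonic fibroblasts (MEFs) were the starting cells. Fibroblasts expressing MyoD, the transcription factor that imposes the muscle programme, received doxycycline (Dox) for 2, 4, 6, 8 or 10 days and are labelled myotubes. Fibroblasts that expressed MyoD and also received F/R/C, a treatment the labels leave as letters, were sampled on the same 5 days and are labelled muscle fibers and progenitor cells. The other groups were bulk induced myogenic progenitor cells (iMPCs), grown without Dox in F/R/C medium after 13 days of Dox with F/R/C, iMPCs sorted for Pax7-nGFP, bulk primary myoblasts from skeletal muscle, and myoblasts sorted for Pax7-nGFP. Nothing in the labels says whether the 3 libraries of a group came from separate embryos, animals or cultures, so p-values measure only the spread between these samples, which may be technical.

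Integrins are receptors of an alpha and a beta chain that span the cell membrane. Outside they hold fibronectin, laminin, collagen or counter-receptors on other cells, and inside their short tails engage talin, kindlins and the actin skeleton. Laminins are secreted trimers of an alpha, a beta and a gamma chain that form the basement membrane. In skeletal muscle the alpha7beta1 integrin and the dystroglycan complex anchor the fibre to laminin with the alpha2 chain, and loss of either laminin alpha2 or integrin alpha7 causes muscular dystrophy. Satellite cells, the stem cells of muscle, lie between the fibre and that basement membrane.

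Library totals ran from 15.6 to 36.3 M estimated reads. Levels are given in counts-per-million (CPM, scaled by TMM library size) and as the values of replicates 1, 2 and 3 in that order. Fold changes and adjusted p-values come from edgeR's quasi-likelihood test fitted to all 45 libraries and 17325 genes, with Benjamini-Hochberg adjustment. A call, higher or lower, required an adjusted p under 0.05 together with a change of at least 1 on the log2 scale in that direction. The filter on low counts kept 34 members and left out Itgad, Itgae and Itgax, which never passed 0.424 CPM. The leukocyte chain Itgal and the epithelial chain Lama3 were tested at levels of at most 4.19 and 1.08 CPM. The labelled cell types were checked against their markers. Col1a1 lay at 4817, 3647 and 3496 CPM in MEFs, Myog at 1026, 1480 and 1461 CPM on day 2 of MyoD alone, and Pax7 at 263, 351 and 305 CPM in sorted iMPCs and 813, 674 and 349 CPM in sorted myoblasts. Replicate 3 of the bulk myoblasts stood apart, with Myog at 888, 619 and 59.8 CPM in the 3 libraries, and replicate 1 of the MEFs stood apart in several members named below. In bulk samples, fewer cells of a type and less RNA per cell cannot be told apart.

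The 18 alpha chains can be compared with one another per transcript length, as shares of their summed transcripts-per-million (TPM). In MEFs the fibronectin receptor chain Itga5 held 38.8% ± 1.48 (SD, n = 3) of that sum and the vitronectin receptor chain Itgav 19.4% ± 2.86. The laminin receptor chain Itga7 held 8.7% ± 1.35 there. After 2 days of MyoD alone Itga7 held 28.4% ± 6.07, and with F/R/C it held 45.7% ± 7.76. It made up more than any other alpha chain in every group with F/R/C, in iMPCs (61.7% ± 1.28 in bulk, 63.6% ± 2.21 sorted) and in myoblasts (61.2% ± 16.8 in bulk, 70.3% ± 11.7 sorted). The mean sums were 752 and 280 TPM in bulk and sorted iMPCs and 992 and 817 TPM in bulk and sorted myoblasts. Similar shares there do not mean similar levels. Itga5 in turn held 32.2% ± 10.1 on day 10 of MyoD alone, close to Itga7 at 31.2% ± 15, but 12% ± 2.31 with F/R/C. Itgb1, the common partner of most alpha chains, held 76.9% ± 8.84 of the beta chain sum in MEFs and between 79.0% and 90.9% as group means in the other 8 groups set out here (days 2 and 10 of both treatments, iMPCs and myoblasts).

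**Figure D1:**
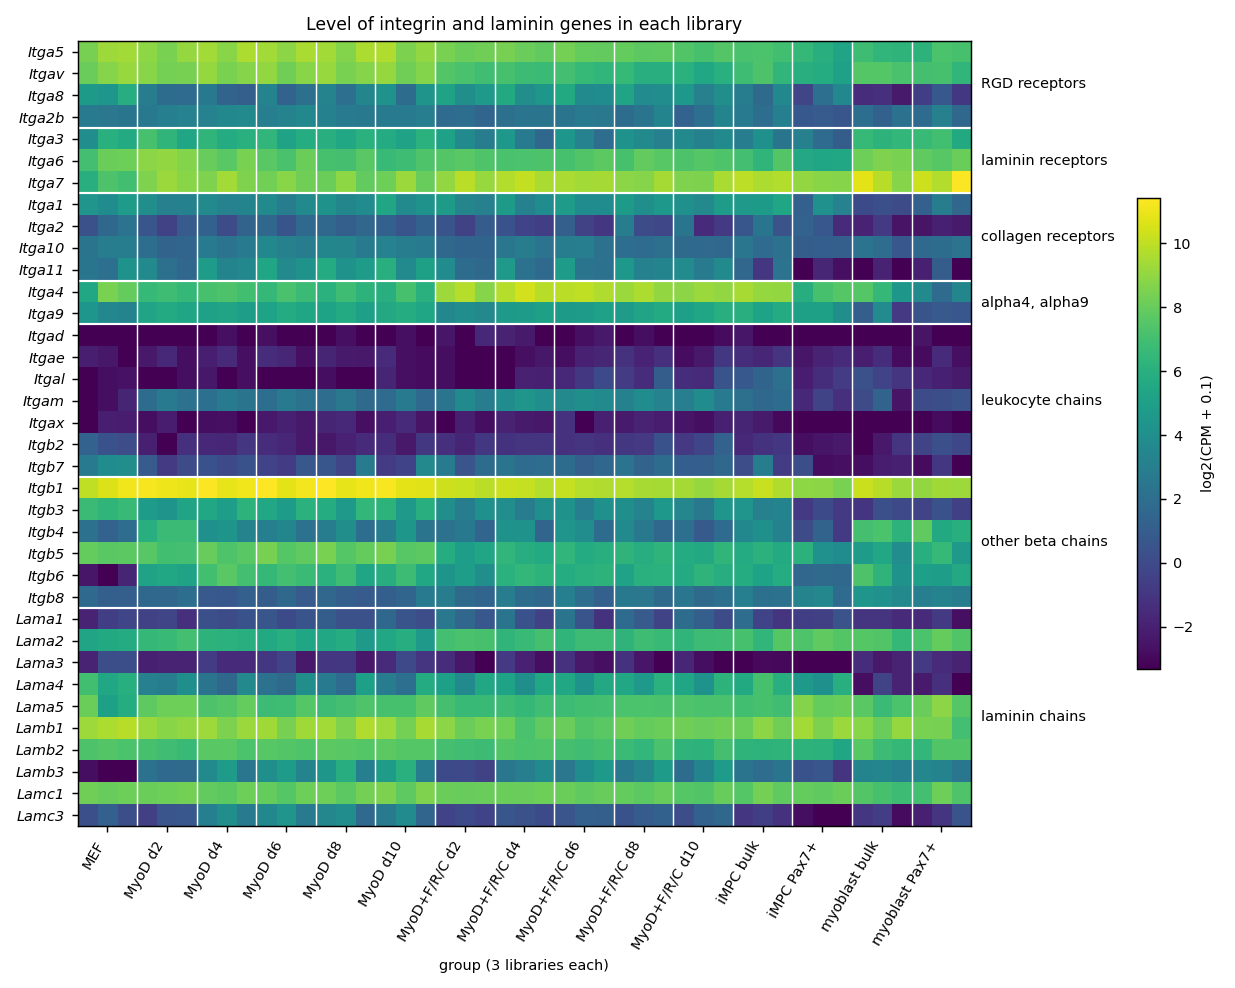
Level of the integrin and laminin genes reported here (rows, grouped by role) in each of the 45 libraries (columns, 3 per group), as log2(CPM + 0.1) on a colour scale from dark (low) to yellow (high). Itgb1 is bright in every library, Itga7 is brighter in every group given MyoD than in MEFs, and Lama4 is dark in both myoblast groups.

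The laminin alpha chains changed places as well. Lama4, the alpha chain of vessel and fibroblast laminins, held 38.8% ± 5.86 of the laminin alpha TPM in MEFs, beside 35.9% ± 21.5 for Lama5 and 23.9% ± 14.5 for Lama2, the chain of the muscle basement membrane. On day 2 of MyoD alone Lama4 held 3.73% ± 0.787 and Lama5 71.1% ± 5.22. With F/R/C on that day Lama2 held 44.9% ± 5.91, Lama5 41.3% ± 5.15 and Lama4 12.4% ± 6.47. In both myoblast groups the sum was almost wholly Lama2 and Lama5, with Lama4 at 0.269% ± 0.388 in bulk and 0.0488% ± 0.0576 in sorted cells. Lamb1 was the main beta chain and Lamc1 the main gamma chain in each of the 9 groups named here. In sorted iMPCs Lamc1 held 99.6% ± 0.127 of the gamma chain sum. TPM are scaled within a library to a fixed sum and keep no depth. For most transcripts with no reads, the deposited effective transcript lengths also differ between the sorted libraries and the unsorted ones.

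**Figure D2:**
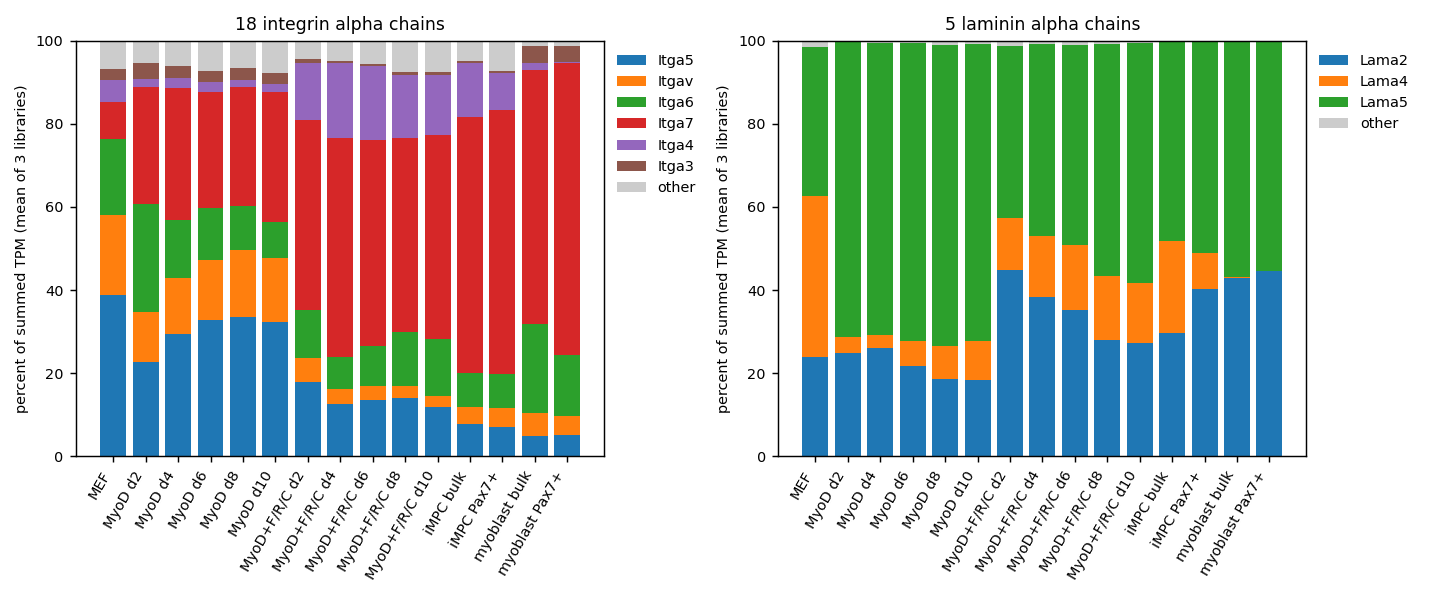
Stacked bars of the share of summed TPM held by single genes among the 18 integrin alpha chains (left) and the 5 laminin alpha chains (right), as means of 3 libraries per group. The red Itga7 segment is larger in iMPCs and myoblasts than in MEFs, and the orange Lama4 segment is largest in MEFs and absent to the eye in both myoblast groups.

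The first comparison set MyoD alone against untreated MEFs. MyoD, Dox and the days of treatment differ together between these groups, and their parts cannot be told apart. On day 2 the laminin receptor chain Itga7, the epithelial chains Itgb6, Itgb4 and Lamb3, and the muscle laminin chain Lama2 were higher than in MEFs, while Lama4, Itga8, Itgb3, Itgb2, Itgb7 and Itga10 were lower. In all, 10 members were called higher and 6 lower, 47.1% of the 34 tested beside 22.4% of all genes tested; for higher calls the share of all genes was 12.3% and for lower calls 10.1%. On day 10, 7 were higher and 1 lower, 23.5% of members beside 18.9% of all genes (14.3% higher, 4.64% lower). The median log2 fold change over the tested members was -0.21 on day 2 and 0.24 on day 10, against 0.00 and 0.01 over all genes. Both comparisons share the MEF libraries. Marker lists of other cells differed from MEFs on day 2 as well. The summed fibroblast markers (Thy1, Col1a1, Pdgfra and Lum) were at 5359 to 6605 CPM in MEFs, 1591 to 2635 CPM on day 2 and 1448 to 5900 CPM on day 10. The summed smooth muscle and pericyte markers (Myh11, Cspg4, Rgs5 and Acta2) were at 1797 to 2491 CPM, 5144 to 6756 CPM and 1856 to 5040 CPM. None of these 8 genes was at 0 in every library of any of the 3 groups, and their part in the result was not tested.

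Among the laminin receptors, Itga7 lay at 62.2, 155 and 126 CPM in MEFs, 386, 600.4 and 449.8 CPM on day 2 and 286, 591 and 252 CPM on day 10 of MyoD alone. All 6 MyoD libraries lay above all 3 MEF libraries (log2 change 2.06 with SE 0.43, adjusted p 0.00037 on day 2; log2 change 1.72 with SE 0.43, adjusted p 0.00271 on day 10). Itga6, a laminin receptor of stem and epithelial cells, lay at 130.3, 282 and 283 CPM in MEFs and rose to 457, 525 and 421 CPM on day 2 (log2 change 1.01 with SE 0.28, adjusted p 0.00444), with no overlap. By day 10 it stood at 98.1, 114 and 163 CPM, within or below the MEF range and without a call. Itga3, which binds laminins of epithelial basement membranes, was at 141, 81.5 and 41.7 CPM on day 2 against 15.1, 64.4 and 52.3 CPM in MEFs and was not called.

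Itgb6, the partner of Itgav in a receptor known from epithelia that activates latent TGF-beta, was close to absent in MEFs at 0.0879, 0 and 0.19 CPM, which are 0 to 3 reads a library. It lay at 36.7, 43.4 and 35.3 CPM on day 2, 122, 205 and 129 CPM on day 4 and 57.8, 109 and 45.9 CPM on day 10. Every MyoD library was far above every MEF library (log2 change 8.75 with SE 0.73, adjusted p 1.03e-10 on day 2; log2 change 9.63 with SE 0.74, adjusted p 2.56e-11 on day 10). Itgb4, which pairs only with Itga6 and ties epithelia to laminin in hemidesmosomes, went from 4.48, 2.42 and 3.8 CPM in MEFs to 62, 107 and 105 CPM on day 2 (log2 change 4.67 with SE 0.78, adjusted p 2.07e-05). On day 4 Itgb4 was back at 16.5, 20.0 and 9.41 CPM and on day 10 at 7.59, 22.3 and 5.02 CPM, where it was no longer called. Lamb3, the beta chain of the hemidesmosomal laminin, had a single read in the 3 MEF libraries together. It stood at 4.53, 3.15 and 3.28 CPM on day 2 and 26.7, 65.5 and 7.39 CPM on day 10, a ratio of read totals of 192 (95% exact interval 34.1 to 7621) and 1669 (299 to 65940), intervals that cover counting error only. Lama3, the alpha chain of that laminin, was at 0.231, 0.842 and 0.383 CPM on day 10 and was not called. Beside these genes, the epithelial markers Krt5, Krt14 and Epcam were at most 0.0634, 0.045 and 0.987 CPM in any of the 45 libraries. The summed level of all 6 epithelial markers ran from 17.6 to 39.6 CPM in MEFs and from 3.44 to 6.47 CPM on day 2 of MyoD alone.

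Of the other adhesion receptors, Itga9, which binds tenascin and osteopontin, was at 21.5, 11.6 and 10.0 CPM in MEFs, 39.5, 51 and 42.3 CPM on day 2 and 48, 56.2 and 40.9 CPM on day 10 (1.62 and 1.75 on the log2 scale, called on both days). Itgb3, the partner of Itgav in the vitronectin receptor, went from 104, 78.9 and 104 CPM to 27.2, 19.7 and 39.2 CPM on day 2 (log2 change -1.73 with SE 0.51, adjusted p 0.00785) and was not called on day 10. Itga8, the nephronectin receptor of mesenchymal cells, went from 25.7, 21.4 and 57.6 CPM to 7.1, 3.61 and 3.51 CPM on day 2 (log2 change -2.88 with SE 0.77, adjusted p 0.00411). Itga10, a collagen receptor, was at 5.1, 7.39 and 7.36 CPM in MEFs and 3.99, 2.47 and 2.7 CPM on day 2 (log2 change -1.11 with SE 0.30, adjusted p 0.00376). Itga5 and Itgav, abundant in MEFs, were not called on either day.

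Of the laminin chains, Lama2 went from 39.4, 49 and 53 CPM in MEFs to 89.2, 97.8 and 127 CPM on day 2 (log2 change 1.15 with SE 0.30, adjusted p 0.00308) and was back at 43.8, 58.1 and 25.1 CPM on day 10 without a call. Lama4 went from 127, 43.4 and 60.7 CPM to 8.46, 7.23 and 15.9 CPM on day 2 (log2 change -2.87 with SE 0.88, adjusted p 0.0108). On day 10 it was at 7.64, 4.01 and 53.7 CPM, so that replicate 3 lay in the MEF range and the others far below it. Without that library Lama4 was called on day 10 too (log2 -3.73, adjusted p 0.00387). Lamc3, a less common gamma chain, was at 1.1, 2.18 and 1.08 CPM in MEFs, 11.8, 20.3 and 6.83 CPM on day 6 and 6.76, 14 and 2.72 CPM on day 10 (log2 change 2.41 with SE 0.66, adjusted p 0.00576). Lama5 was at 276, 33.9 and 55.4 CPM in MEFs and 216, 291 and 294 CPM on day 2 (log2 change 1.13 with SE 0.42, adjusted p 0.0338). Its groups overlapped, since MEF replicate 1 had more of it than a MyoD library, and it was at 139, 138 and 227 CPM on day 10 without a call. Lamb1, Lamb2 and Lamc1, the abundant chains, were not called on either day.

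The leukocyte chain Itgam, the alpha chain of complement receptor 3, had 4 reads in the 3 MEF libraries and lay at 3.55, 6.42 and 4.36 CPM on day 2 and 3.52, 6.44 and 3.17 CPM on day 10 (log2 change 6.01 with SE 0.80, adjusted p 5.08e-07; log2 change 5.88 with SE 0.80, adjusted p 7.72e-07). Its beta chain Itgb2 went the other way, from 2.42, 1.21 and 1.01 CPM in MEFs to 0.146, 0 and 0.315 CPM on day 2 and 0.278, 0.0991 and 0.418 CPM on day 10 (-3.24 and -2.49 on the log2 scale, called on both days). Itgb7, a beta chain of lymphocytes, went from 6.95, 14.3 and 15.7 CPM to 1.8, 0.459 and 0.989 CPM on day 2 (log2 change -3.49 with SE 1.06, adjusted p 0.0103). The leukocyte marker Ptprc was at most 0.675 CPM, Tyrobp 0.155 CPM and Adgre1 0.13 CPM in any library. Laptm5 was higher, at 36.6, 44.9 and 55.6 CPM on day 10 of MyoD alone. The summed level of the 7 leukocyte markers, including those not named here, was 5.71 to 11.3 CPM in MEFs, 9 to 17.4 CPM on day 2 and 42 to 64.1 CPM on day 10. Itgam shares exons on its own strand with the predicted gene Gm49368, which held at most 3 reads in any library.

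Of the 16 calls on day 2, 6 were kept whichever replicate number was left out of all groups (Itga7, Itgam, Itgb2, Itgb4, Itgb6 and Lamb3), and among the others the adjusted p reached 0.381, for Lama5 without replicate 2. On day 10 the calls of Itgam, Itgb6 and Lamb3 were kept, while Itga7 was at log2 1.58 with adjusted p 0.0552 without replicate 1, Itga9 at 2.17 with adjusted p 0.0578 without replicate 1, Itgb2 at -2.29 with adjusted p 0.122 without replicate 2 and Lamc3 at 2.10 with adjusted p 0.139 without replicate 2.

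Members called higher on both days of MyoD alone included Itga7, Itga9, Itgam, Itgb6 and Lamb3. Windows from RefSeq's table of start sites (GRCm38.p6) were used for the last 4 of these and for 23 of all 37 members, with Lama3 left out. The 250 bases before each start were searched for the E-box letters CANNTG, where N is any base, and for CAGCTG, the E-box form that MyoD is known to prefer and one case of CANNTG. Both read the same on either strand. Of all 32851 windows in the table, 66.2% held CANNTG and 13.0% held CAGCTG. The latter was present in 1 window of Lamb3 and in the Itga9 window, which lies at a start inside the gene, and in neither Itgb6 window nor the Itgam window. Of the 26 member windows used, 6 held it. Lamb3, Itgb6 and Itgam rose from almost nothing. A window each of Lamb3 and Itgb6 is shown, while that of Itgam, with 1 CANNTG, is not. The stretches run 5′ to 3′ in lower case with every CANNTG in capitals, up to the first base of any exon that GENCODE gives the gene. The Lamb3 stretch is chr1:193301744-193301992 on the plus strand, inside the annotated span of the gene, and holds 3 CANNTG of which the last is CAGCTG. The Itgb6 stretch is chr2:60722644-60722853 on the minus strand, before the first exon, and holds 2 of the 3 in its window. A match is a description of the letters only.
Lamb3: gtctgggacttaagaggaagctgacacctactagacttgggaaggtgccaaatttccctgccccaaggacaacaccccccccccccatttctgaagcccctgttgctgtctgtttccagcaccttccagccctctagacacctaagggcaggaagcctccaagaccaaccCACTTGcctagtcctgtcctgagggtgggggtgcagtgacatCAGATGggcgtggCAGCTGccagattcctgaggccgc
Itgb6: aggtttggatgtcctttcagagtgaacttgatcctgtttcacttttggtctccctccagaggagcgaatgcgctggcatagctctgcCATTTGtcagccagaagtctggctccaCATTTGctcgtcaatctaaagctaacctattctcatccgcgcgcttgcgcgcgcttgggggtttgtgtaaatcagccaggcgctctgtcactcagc

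MyoD with F/R/C was compared with MEFs in the same way. Here MyoD, F/R/C, Dox and the days of treatment differ together and cannot be told apart. Against MEFs, Itga7, Itgb6, Itgam, Lamb3, Lama2, Itga4 and Lama1 were higher on day 2, and Itgav, Itgb5, Itgb3, Lamb1, Itga10, Itgb2 and Lama3 were lower. These are 14 calls, 41.2% of members beside 20.4% of all genes (11.5% higher, 8.93% lower). On day 10, 9 members were higher and 10 lower, 55.9% beside 34.8% of all genes (19.0% higher, 15.8% lower). On day 10 Itgav was at 67.7, 44.2 and 65.3 CPM against 268, 429 and 576 CPM in MEFs (log2 change -2.84 with SE 0.31, adjusted p 9.37e-09), Itga5 at 173, 141 and 181 CPM against 334, 610 and 674 CPM (log2 change -1.71 with SE 0.31, adjusted p 3.2e-05) and Itgb1 at 685, 547 and 699 CPM against 1023, 1581 and 2247 CPM (log2 change -1.33 with SE 0.25, adjusted p 3.96e-05). None of these 3 pairs of groups overlapped. The summed fibroblast markers were at 1040 to 2142 CPM on day 2 and 363 to 2210 CPM on day 10 with F/R/C, below every MEF library, and the smooth muscle and pericyte markers at 1979 to 3618 CPM and 919 to 1518 CPM; their part in the result was not tested.

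Itgb6 was at 19.7, 31.1 and 16.3 CPM on day 2 and 51.8, 78.4 and 58.8 CPM on day 10 when F/R/C was given (log2 change 7.97 with SE 0.73, adjusted p 9.04e-10; log2 change 9.46 with SE 0.73, adjusted p 3.04e-11). Lamb3 was at 0.894, 0.844 and 0.644 CPM on day 2 and 3.62, 10.0 and 28.2 CPM on day 10, where its ratios to the single MEF read were 45.5 (95% exact interval 7.81 to 1831) and 929 (166 to 36720). Itgam was at 4.92, 13 and 7.13 CPM and 7.79, 13.8 and 6.92 CPM on those days. These 3 members, near absent in MEFs, were thus higher under both treatments. Itgal, the alpha chain of the lymphocyte receptor LFA-1, was at 0.278, 0.243 and 1.34 CPM on day 10 against 0, 0.0465 and 0.0634 CPM in MEFs (adjusted p 0.00237 by edgeR's test). The MEF libraries held 2 Itgal reads in all, and the ratio was 21.2 (lower bound of the 95% exact interval 5.57). Lama1, a laminin chain of the embryo, was at 5.81, 2.81 and 1.47 CPM on day 2 against 0.176, 0.557 and 0.761 CPM (log2 change 2.77 with SE 0.87, adjusted p 0.0137). Both are low in every library.

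Itga4 was called against MEFs (log2 change 1.58 with SE 0.55, adjusted p 0.024 on day 2), where MEF replicate 1 held 44.6 CPM and the other MEF libraries 356 and 249 CPM. Without MEF replicate 1 its call was lost on day 2 (log2 1.09, adjusted p 0.124) and on day 10 (log2 0.88, adjusted p 0.166). Of the 14 calls on day 2, 7 were kept whichever replicate number was left out, and 12 of 19 on day 10; Itgb1 on day 10 ranged down to a log2 fold change of -0.94 without replicate 3.

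The comparison at the centre of the design sets MyoD with F/R/C against MyoD alone. Its p-values over 5 days treat libraries of different days as independent, which the labels do not settle. Averaged over the 5 days, the fibronectin and vitronectin receptor chains Itga5, Itgav, Itgb1, Itgb3 and Itgb5 were lower with F/R/C, as were Itga3, Itgb4, Lamb1, Lamb3, Lama3 and Lamc3. The chains Itga4, Itga8, Lama4, Lama1, Itgam, Itgb2 and Itgal were higher. In all 7 of 34 members were called higher and 11 lower, 52.9% beside 22.1% of all genes (11.6% higher, 10.5% lower), and the members' median log2 fold change was -0.47 against -0.03 over all genes. On day 2 alone 2 were higher and 6 lower (23.5% of members beside 4.93% of all genes, 2.13% higher and 2.80% lower). On day 10 alone 4 were higher and 12 lower (47.1% beside 23.3%, 9.91% higher and 13.4% lower).

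**Figure D3:**
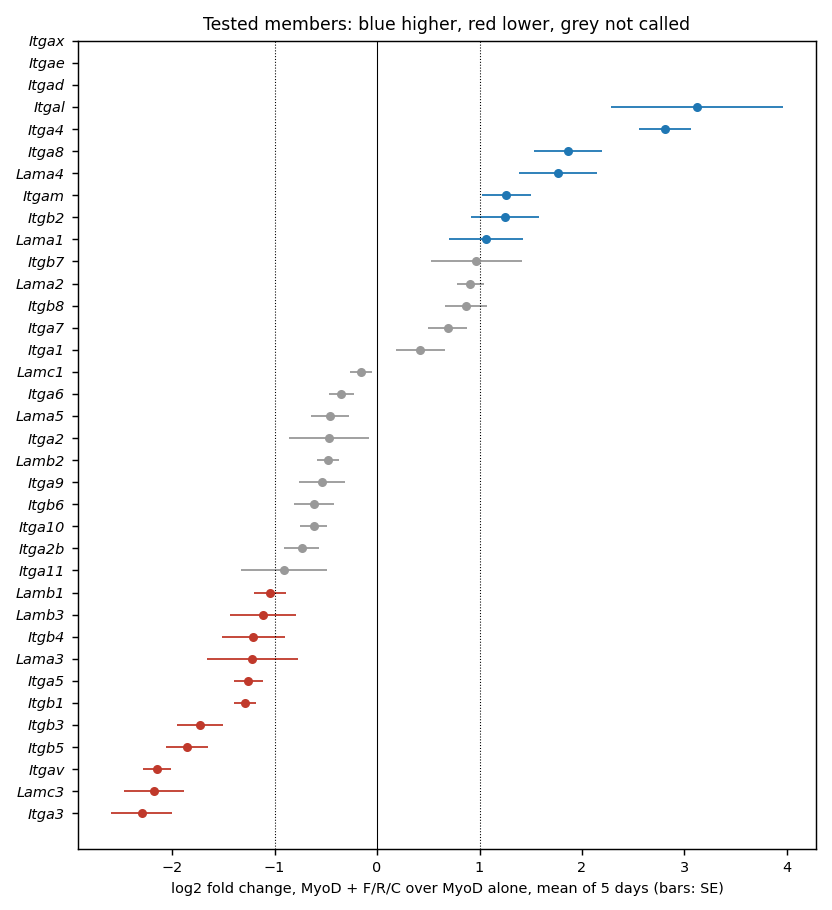
Log2 fold change of MyoD with F/R/C over MyoD alone, averaged over 5 days, for the tested members reported here (points, with the SE as bars), sorted from lowest to highest. Itga3 at -2.30 is lowest and Itgal at 3.12 is highest, and grey points did not meet both limits of a call (dotted lines mark a log2 fold change of -1 and 1).

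Among the receptors of the RGD tripeptide in fibronectin and vitronectin, Itgav showed the widest gap. It was at 451, 326 and 337 CPM on day 2 and 544, 303 and 409 CPM on day 10 of MyoD alone, and at 179, 144 and 119 CPM and 67.7, 44.2 and 65.3 CPM with F/R/C. On both days every F/R/C library was below every library of MyoD alone (over 5 days log2 change -2.14 with SE 0.14, adjusted p 1.95e-14). Itga5 was at 824, 369 and 535 CPM on day 10 of MyoD alone and 173, 141 and 181 CPM with F/R/C (over 5 days log2 change -1.25 with SE 0.14, adjusted p 2.69e-09). Their beta partners were lower too. Itgb5 was at 194, 125 and 131 CPM on day 2 and 342, 191 and 208 CPM on day 10 of MyoD alone, and 56, 31.2 and 42.6 CPM and 53.2, 46.9 and 79.8 CPM with F/R/C, with no overlap on either day (over 5 days log2 change -1.86 with SE 0.20, adjusted p 2.5e-09). Itgb3 was at 72.9, 25.5 and 61.7 CPM on day 10 against 11.2, 5.84 and 20.8 CPM with F/R/C (log2 change -2.08 with SE 0.52, adjusted p 0.00184; over 5 days log2 change -1.73 with SE 0.23, adjusted p 9.1e-08). Itgb1, their common beta chain, was at 2349, 2148 and 1890 CPM on day 2 and 2512, 1809 and 1742 CPM on day 10 of MyoD alone, and 1267, 1183 and 942 CPM and 685, 547 and 699 CPM with F/R/C (over 5 days log2 change -1.29 with SE 0.11, adjusted p 1.48e-11). Itga8, also an RGD receptor, went the other way, at 7.1, 3.61 and 3.51 CPM on day 2 of MyoD alone and 35.9, 15.6 and 25.3 CPM with F/R/C (log2 change 2.43 with SE 0.76, adjusted p 0.0418; over 5 days log2 change 1.86 with SE 0.33, adjusted p 1.32e-05). On day 10 the Itga8 groups overlapped, at 19.4, 3.67 and 19.4 CPM and 23.1, 8.52 and 15.6 CPM. Itga2b, the platelet chain, had -0.73 (SE 0.17) and did not reach the fold limit. The collagen receptor chains Itga1, Itga2, Itga10 and Itga11 were not called over 5 days, at 0.42, -0.47, -0.62 and -0.91, and neither were Itgb6 at -0.62 and Itgb8 at 0.87.

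Itga4, called higher with F/R/C over the 5 days, binds VCAM-1 and fibronectin and is known for leukocyte homing and myoblast adhesion. Itga4 was at 94.6, 117 and 90.4 CPM on day 2, 142, 158 and 125 CPM on day 4 and 60.8, 138 and 65.7 CPM on day 10 of MyoD alone. With F/R/C it was at 609, 897 and 438 CPM, 881, 1366 and 904 CPM and 459, 587 and 519.8 CPM on those days. The groups were apart on each of the 5 days (over 5 days log2 change 2.81 with SE 0.26, adjusted p 5.26e-11). Itgb1, the common partner of most alpha chains, went the other way over 5 days (log2 change -1.29). Itgb7, a scarcer partner of Itga4, was at 0.509, 0.694 and 12.3 CPM on day 10 of MyoD alone and 1.99, 2.14 and 3.07 CPM with F/R/C. Over 5 days Itgb7 missed both limits (log2 change 0.97 with SE 0.44, adjusted p 0.057 by edgeR's test). It passed them with RLE size factors (log2 1.01, adjusted p 0.0469), a replicate block (1.06, 0.0417), the compared groups alone (1.00, 0.0253) and DESeq2 (1.02, 0.034), and without replicate 3 of MyoD alone on day 10 (1.60, 0.00112). Over all alternatives its adjusted p ran from 0.00112 to 0.304. The relative of Itga4, Itga9, was at 39.5, 51 and 42.3 CPM on day 2 of MyoD alone and 11.8, 14.8 and 12.3 CPM with F/R/C (log2 change -1.77 with SE 0.52, adjusted p 0.029), with similar levels on day 10. Among leukocyte chains, Itgam was at 4.14, 7.06 and 5.07 CPM on day 4 of MyoD alone and 14.4, 20.8 and 15 CPM with F/R/C (over 5 days log2 change 1.26 with SE 0.24, adjusted p 3.58e-05). Itgb2 was at 0.278, 0.0991 and 0.418 CPM on day 10 of MyoD alone and 0.437, 0.73 and 2.37 CPM with F/R/C (log2 change 2.11 with SE 0.68, adjusted p 0.0139; over 5 days log2 change 1.25 with SE 0.33, adjusted p 0.00146). Itgal was at 0.185, 0.0495 and 0.0348 CPM and 0.278, 0.243 and 1.34 CPM on that day (log2 change 2.78 with SE 0.92, adjusted p 0.0159; over 5 days log2 change 3.12 with SE 0.84, adjusted p 0.00186). Itgal had no reads on day 6 of MyoD alone, so its value over 5 days depends on the small count added by the fit. Within its group, F/R/C replicate 3 on day 10 held the most Itgb2 and Itgal. It also held the most Laptm5 of any library, 90.8 CPM, while its Ptprc was 0.177 CPM; their part in the result was not tested.

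**Figure D4:**
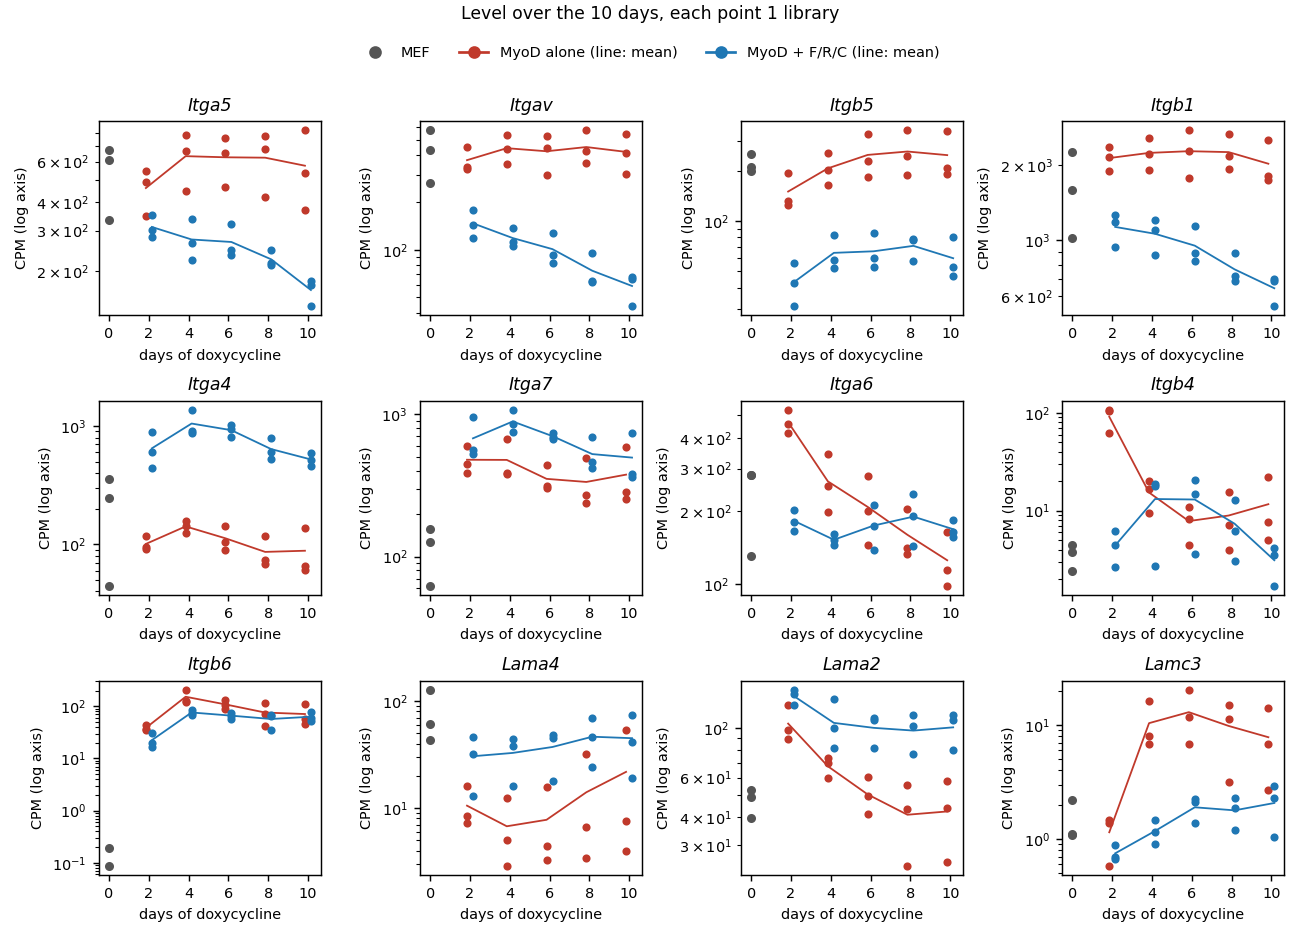
CPM on a log axis against days of Dox for 12 members. Each point is 1 library (grey MEF at day 0, red MyoD alone, blue MyoD with F/R/C) and lines join group means; the MEF library without Itgb6 reads cannot be drawn on this axis. Blue lies below red for Itga5, Itgav, Itgb5 and Itgb1 and above it for Itga4 on all 5 days, as group means, and the day 2 peaks of Itga6 and Itgb4 are in the red series.

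The laminin receptors did not move as one. Itga3 was at 141, 81.5 and 41.7 CPM on day 2 and 53.8, 36.1 and 68.2 CPM on day 10 of MyoD alone, and 35.1, 13.3 and 7.32 CPM and 12.7, 8.76 and 13.4 CPM with F/R/C, with no overlap on either day (over 5 days log2 change -2.30 with SE 0.30, adjusted p 6.58e-08). Itga7 had 0.69 (SE 0.19, adjusted p 0.00191) by edgeR's test, below the fold limit. On day 4 it was at 382, 665 and 386 CPM with MyoD alone and 854, 1070 and 745 CPM with F/R/C, without overlap, and on day 10 at 286, 591 and 252 CPM and 383, 364 and 741 CPM, with overlap. Itga6 with F/R/C stayed near its MEF level, at 181, 201 and 165 CPM on day 2 and 157, 184 and 164 CPM on day 10. Its day 2 peak under MyoD alone was thus absent (log2 change -1.36 with SE 0.28, adjusted p 0.00181 on day 2; -0.35 over 5 days, not called). Itgb4, the partner of Itga6, on day 2 was at 4.42, 6.14 and 2.67 CPM with F/R/C against 62, 107 and 105 CPM without (log2 change -4.37 with SE 0.77, adjusted p 0.000386). The Itgb4 groups overlapped on days 4, 6 and 8 and were apart on day 10, and over 5 days it had -1.21 (SE 0.31).

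The effect of F/R/C on day 10 differed from that on day 2 for 2 of 34 members (5.88% beside 6.01% of all genes, 2.24% higher and 3.77% lower). For Itga6 the difference of effects was 1.79 (SE 0.39, adjusted p 0.00696) by edgeR's test, with lower Itga6 under F/R/C on day 2, while the day 10 groups stood at 98.1, 114 and 163 CPM without and 157, 184 and 164 CPM with F/R/C. For Itgav it was -1.50 (SE 0.41, adjusted p 0.0231), with a gap of -1.33 on day 2 and -2.83 on day 10. Neither call was kept in all fits without a replicate number: Itga6 was at 1.69 with adjusted p 0.105 without replicate 1 and Itgav at -1.42 with adjusted p 0.189 without replicate 2. The count was 5 without replicate 3 of the bulk myoblasts, which enters this comparison only through the shared spread, and 1 without replicate 3 of MyoD alone on day 10.

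Of the laminin chains, Lama4 was at 8.46, 7.23 and 15.9 CPM on day 2 of MyoD alone and 32.1, 12.8 and 46.5 CPM with F/R/C, where replicates 1 and 3 with F/R/C lay above every library of MyoD alone and replicate 2 inside their range. Over 5 days it was higher with F/R/C (log2 change 1.76 with SE 0.38, adjusted p 0.000156). On day 10 the groups overlapped, at 7.64, 4.01 and 53.7 CPM and 41.4, 19 and 74.4 CPM, through replicate 3 of MyoD alone. Lama2 was at 43.8, 58.1 and 25.1 CPM on day 10 of MyoD alone and 79.5, 108 and 115 CPM with F/R/C, without overlap (log2 change 1.25 with SE 0.30, adjusted p 0.00133). Over 5 days its value was 0.91 (SE 0.13), short of the fold limit. Lamc3 was at 11.8, 20.3 and 6.83 CPM on day 6 of MyoD alone and 1.38, 2.23 and 2.09 CPM with F/R/C (over 5 days log2 change -2.17 with SE 0.29, adjusted p 1.39e-07). Lamb1 was at 612, 373 and 586 CPM on day 4 of MyoD alone and 285, 144 and 229 CPM with F/R/C, without overlap. On day 10 it was at 616, 318 and 717 CPM and 305, 263 and 294 CPM (over 5 days log2 change -1.04 with SE 0.16, adjusted p 9.7e-07). Lamb3 was at 26.7, 65.5 and 7.39 CPM on day 10 of MyoD alone and 3.62, 10.0 and 28.2 CPM with F/R/C, with overlap and without a call on that day (over 5 days log2 change -1.11 with SE 0.32, adjusted p 0.00344). Lama1 was at 0.632, 0.746 and 0.315 CPM and 5.81, 2.81 and 1.47 CPM on day 2, where it was not called (log2 change 2.58 with SE 0.86, adjusted p 0.0578; over 5 days log2 change 1.06 with SE 0.36, adjusted p 0.0116). Lama3 was at 0.231, 0.842 and 0.383 CPM and 0.199, 0.0487 and 0 CPM on day 10 (log2 change -2.48 with SE 1.00, adjusted p 0.0468; over 5 days log2 change -1.22 with SE 0.44, adjusted p 0.0185). Lamc1, the gamma chain of most laminins, was at 370, 220.3 and 377 CPM on day 10 of MyoD alone and 183, 169 and 261 CPM with F/R/C, and at 294, 257 and 285 CPM in MEFs. Lama5, Lamb2 and Lamc1 were not called over 5 days.

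Of the 18 calls over 5 days, 12 were kept whichever replicate number was left out; the exceptions were Itgal (log2 3.71 with adjusted p 1.0 without replicate 1), Itgb4 (-0.80 with adjusted p 0.0877 without replicate 2), Lama1 (0.38 with adjusted p 0.352 without replicate 1), Lama3 (-0.71 with adjusted p 0.397 without replicate 2), Lamb1 (-0.84 with adjusted p 0.00192 without replicate 3) and Lamb3 (-0.41 with adjusted p 0.425 without replicate 2). Lamb1 also missed the fold limit, narrowly, with RLE size factors (log2 -0.997), without the filter on low counts (-0.991) and with DESeq2 (-0.997). Lama1 missed it under a replicate block (0.83, adjusted p 0.0179), and Lama3 did not pass the filter on low counts when the compared groups were fitted alone. On single days fewer held, 2 of 8 on day 2 (Itga6 and Itgb4) and 7 of 16 on day 10 (Itga4, Itga5, Itga10, Itgav, Itgb1, Itgb5 and Lama2). With the replicate number as a block on day 2, the count was 11 in place of 8, with Itga2b, Lama1 and Lama5 added. The summed fibroblast markers Thy1, Col1a1, Pdgfra and Lum moved beside the lower members. They were at 1448 to 5900 CPM on day 10 of MyoD alone and 363 to 2210 CPM with F/R/C, ranges that overlap. The summed progenitor markers Pax7 and Myf5 were at 0.0349 to 0.198 CPM and 52.65 to 77.59 CPM in these groups, without overlap. The part of either list in the result was not tested.

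The established iMPCs were compared with the end of the F/R/C course and with myoblasts. Between bulk iMPCs and day 10 of F/R/C, the length of Dox treatment, its withdrawal and the time in culture differ together and cannot be told apart. Against myoblasts, bulk or sorted, the source of the cells and their history of treatment differ together and cannot be told apart either. Bulk iMPCs differed from day 10 of F/R/C in 5 members (14.7% beside 9.57% of all genes, 3.33% higher and 6.24% lower). Itgal was higher at 1.59, 2.65 and 4.19 CPM (2.15), Itgb4 at 11.7, 17 and 8.79 CPM (2.00) and Itgav at 113, 158 and 83.9 CPM (1.00, all log2). Lamc3 was lower at 0.411, 0.564 and 0.323 CPM (-2.25) and Itgb2 at 0.219, 0.338 and 0.43 CPM (-1.83). None of these 5 calls was kept in all 3 fits without a replicate number, and without replicate 2 all 5 were lost.

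Against bulk myoblasts, bulk iMPCs had 12 members higher and 4 lower (47.1% beside 19.6% of all genes, 10.9% higher and 8.70% lower). The widest difference was in Lama4, at 49.9, 138 and 62.3 CPM in bulk iMPCs and 0.0449, 0.701 and 0.182 CPM in bulk myoblasts (log2 change 7.88 with SE 1.16, adjusted p 6.34e-06). Collagen receptor chains were higher too, with Itga11 at 2.79, 0.395 and 4.89 CPM against 0, 0.175 and 0 CPM (log2 change 5.09 with SE 1.36, adjusted p 0.00444) and Itga1 at 23.9, 25.8 and 41.7 CPM against 0.897, 1.13 and 0.946 CPM (log2 change 4.93 with SE 0.64, adjusted p 1.07e-06). Itga8 was at 7.14, 3.3 and 11.6 CPM against 0.269, 0.3 and 0.109 CPM (log2 change 4.96 with SE 0.93, adjusted p 0.000141), and Itgb7 at 1.04, 7.58 and 0.511 CPM against 0.0449, 0.125 and 0.146 CPM (log2 change 4.73 with SE 1.23, adjusted p 0.00331). Itgb3 was at 20.2, 8.57 and 9.97 CPM against 0.359, 1.13 and 0.837 CPM and Itga4 at 735, 547 and 522 CPM against 188, 90.6 and 22.6 CPM, both called. The lower members were laminin receptors and Itgb8. Itgb4 was at 11.7, 17 and 8.79 CPM in bulk iMPCs and 136, 150.1 and 75 CPM in bulk myoblasts (log2 change -3.27 with SE 0.72, adjusted p 0.000778). Itga3 was at 7.28, 17.1 and 5.19 CPM against 94, 72.9 and 87.2 CPM (log2 change -3.10 with SE 0.69, adjusted p 8e-04) and Itga6 at 129, 81.7 and 180.3 CPM against 283, 384 and 348 CPM (log2 change -1.38 with SE 0.28, adjusted p 0.000306). Itgb8, which like Itgb6 pairs with Itgav to activate TGF-beta, was at 8.13, 4.31 and 4.38 CPM against 20.8, 17.8 and 12.1 CPM (log2 change -1.59 with SE 0.45, adjusted p 0.00715). Itga7 was not called, at 984, 773 and 838 CPM and 1790, 919.6 and 427 CPM.

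The summed fibroblast markers ran from 415 to 889.9 CPM in bulk iMPCs and from 1.38 to 7.04 CPM in bulk myoblasts, so fibroblast transcripts differed beside these members and their part in the result was not tested. Of the 16 calls, 9 were kept whichever replicate number was left out (Itga1, Itga3, Itga4, Itga6, Itga8, Itga9, Itgb3, Itgb4 and Lama4). Without replicate 3 of the bulk myoblasts the count was again 16, of which 13 were shared.

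The sorted cells allow the comparison within Pax7-positive cells, where the fibroblast markers were low on both sides, at 3 to 56.1 CPM in iMPCs and 2.34 to 15.1 CPM in myoblasts. Sorted iMPCs had 5 members higher and 13 lower than sorted myoblasts (52.9% beside 30.0% of all genes, 12.4% higher and 17.6% lower). Lama4 was again the widest on the higher side, at 24.9, 16.5 and 62.5 CPM in sorted iMPCs and 0.106, 0.318 and 0 CPM in sorted myoblasts (log2 change 7.74 with SE 1.23, adjusted p 5.87e-06). Itga9 was at 32.9, 33.4 and 15.7 CPM against 1.31, 1.62 and 1.52 CPM (log2 change 4.20 with SE 0.60, adjusted p 1.02e-06) and Itga4 at 57.5, 141 and 188 CPM against 13.3, 3.5 and 10.7 CPM (log2 change 3.82 with SE 0.60, adjusted p 5.1e-06). Itga2, a collagen receptor, was at 2.43, 1.5 and 0.258 CPM against 0.0706, 0.141 and 0.109 CPM (log2 change 3.65 with SE 1.08, adjusted p 0.00588), and Itga8 at 0.737, 4.12 and 11.6 CPM against 0.565, 1.55 and 0.435 CPM, with overlap (log2 change 2.64 with SE 0.81, adjusted p 0.00798).

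The lower side included laminin receptor chains, the laminin chains Lamc3 and Lama3, and chains of other kinds. Itgb4 was at 0.997, 2.5 and 0.465 CPM in sorted iMPCs and 223, 50.3 and 64 CPM in sorted myoblasts (log2 change -6.38 with SE 0.85, adjusted p 4.31e-07). Itga3 was at 8.58, 3.52 and 1.96 CPM against 101, 125 and 50.5 CPM (log2 change -4.29 with SE 0.73, adjusted p 1.56e-05) and Lamc3 at 0.0433, 0 and 0 CPM against 0.141, 0.388 and 1.3 CPM (adjusted p 0.00073). Sorted iMPCs held 1 Lamc3 read in all, and the ratio of sorted myoblasts to it was 36.6 (95% exact interval 6.19 to 1481). None of these pairs overlapped. Lama3 was listed at 0 reads in all 3 sorted iMPC libraries and at 0.459, 0.247 and 0.163 CPM in sorted myoblasts, and was called (adjusted p 0.00407 by edgeR's test). Itgb6 was at 2.82, 3.31 and 3 CPM against 32, 31.3 and 47.1 CPM (-3.59), Itga6 at 47.5, 42.7 and 45.7 CPM against 228, 189.7 and 272 CPM (-2.34) and Itga7 at 530.1, 442 and 423 CPM against 1262, 839.6 and 2541 CPM (-1.74, log2). Also called lower were Itgb2 (-3.472), Lamb3 (-3.125), Itga2b (-1.641), Itgav (-1.235) and Lamb2 (-1.197, all log2). Lama2 and Lama5, the chains of the muscle fibre basement membrane and of most adult ones, were not called: Lama2 was at 166, 226 and 176 CPM and 154, 241 and 171 CPM, and Lama5 at 412, 247 and 282 CPM and 270.1, 472 and 189 CPM. Of the 18 calls, 13 were kept whichever replicate number was left out. By edgeR's test without replicate 3, Itga7 was at -1.09 with adjusted p 0.0692 and Itga8 at 1.235 with adjusted p 0.384. Without replicate 2 Lama3 was at -5.968 with adjusted p 0.0738. The calls of Itga2b and Lamb2 were not kept either. The differentiation marker Myog, at 139, 190 and 266 CPM in sorted iMPCs and 418, 892 and 1276 CPM in sorted myoblasts, moved beside these genes, and its part in the result was not tested.

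Within iMPCs, sorted cells had 19 members lower and 1 higher than bulk cells (58.8% beside 30.3% of all genes, 9.88% higher and 20.5% lower). The higher one was Lama5, at 412, 247 and 282 CPM against 125, 139 and 122 CPM (log2 change 1.28 with SE 0.42, adjusted p 0.0122). Wide differences were seen in Itga11 at 0, 0.202 and 0.0517 CPM against 2.79, 0.395 and 4.89 CPM (log2 change -4.85 with SE 1.40, adjusted p 0.00479), Itgb3 at 0.477, 0.889 and 0.465 CPM against 20.2, 8.57 and 9.97 CPM (-4.37) and Itgb6 at 2.82, 3.31 and 3 CPM against 55.8, 37.4 and 55.8 CPM (-4.03). Lamc3 was called lower too, and the ratio of bulk cells to the single read in sorted cells was 27.5 (4.70 to 1108). Lama2 and Lama4 were not called. Of the 20 calls, 9 were kept whichever replicate number was left out, among them Itgb3 and Itgb6. By edgeR's test without replicate 3, the adjusted p was 0.0561 for Lama5 and 0.0944 for Itga11. Without replicate 2 it was 0.0513 for Lamc3. Summed muscle markers (Myog, Ckm, Acta1 and Mymk) lay from 321 to 597 CPM in sorted and from 4404 to 5901 CPM in bulk iMPCs, and fibroblast markers from 3 to 56.1 CPM against 415 to 889.9 CPM; their part in the result was not tested. Sorting also coincides with the difference in deposited effective lengths, and these cannot be told apart.

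Sorted myoblasts differed from bulk myoblasts in 4 members (11.8% beside 6.23% of all genes, 2.20% higher and 4.03% lower). Itga4 was lower at 13.3, 3.5 and 10.7 CPM against 188, 90.6 and 22.6 CPM (log2 change -3.46 with SE 0.59, adjusted p 0.00035), and this call was kept whichever replicate number was left out. Itga9 was lower (-1.90) through bulk replicate 2, at 2.11, 13.8 and 0.437 CPM in bulk and 1.31, 1.62 and 1.52 CPM in sorted cells, and its log2 change was 0.21 with adjusted p 0.876 without replicate 2. Itga1 (2.07) and Itgb2 (2.46) were higher, with calls that were lost in at least 1 such fit. With only these 2 groups fitted, no member was called by edgeR's test; with all groups fitted 12 members had an unadjusted p under 0.05, and DESeq2 called 6.

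Several integrins end in alternative cytoplasmic tails made by splicing, and the deposited transcript counts allow a view of them. Itgb1 has a muscle tail known as beta1D beside the common beta1A tail. In GENCODE the common tail ends in a coding stretch of 63 bases (Itgb1-201, chr8:128732023-128732085, plus strand) and the alternative one in 72 bases (Itgb1-204, chr8:128726983-128727054, plus strand). The coding bases are shown because the shares below rest on reads that tell them apart, with capitals where the letters differ at the same position from the first base, 22 of 63 and 31 of 72.
Itgb1-201: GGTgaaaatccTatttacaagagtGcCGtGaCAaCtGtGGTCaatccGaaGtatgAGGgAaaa
Itgb1-204: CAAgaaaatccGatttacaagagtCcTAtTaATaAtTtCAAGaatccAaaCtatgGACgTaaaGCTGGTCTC

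Itgb1-204 was nearly absent in MEFs, with 0, 0 and 12.8 estimated reads, and was counted more often with MyoD: 226, 499 and 245 reads on day 10 of MyoD alone and 92.5, 90.9 and 427 with F/R/C. As a share of the reads of all coding Itgb1 transcripts this was 0, 0 and 0.0361% in MEFs, 0.201, 0.547 and 0.276% on day 6 of MyoD alone and 1.02, 1.5 and 1.25% on day 6 with F/R/C. The share was highest in bulk iMPCs at 3.17, 1.62 and 2.22% and stood at 0.262, 0.409 and 0.161% in sorted iMPCs. Averaged over the 5 days it was 0.894% with F/R/C and 0.384% with MyoD alone, a difference of 0.51 percentage points (exact two-sided permutation of labels within days, p = 0.0015, 0.006 adjusted over 4 genes). The share was higher with F/R/C in 12 of 15 same-numbered pairs of libraries. With F/R/C the mean Itgb1-204 reads, not scaled for depth, were 25.3, 189, 240, 181 and 204 on days 2, 4, 6, 8 and 10. With MyoD alone they were 42.3, 105, 141, 202 and 323, more than with F/R/C on days 2, 8 and 10. Itgb1 as a whole was lower with F/R/C (over 5 days log2 change -1.29), so a higher share does not mean more of this transcript. The test treats libraries of different days as independent. Within MyoD alone, replicate 2 held the highest share on days 4, 6, 8 and 10. With F/R/C the highest share was in replicate 2 on days 4 and 6 and in replicate 3 on days 8 and 10. Without replicate 1 the adjusted p was 0.0576 and without replicate 3 it was 0.157. Itgb1-204 is annotated as a short fragment of 711 bases while Itgb1-201 has 3815, so its share of reads understates its share of molecules.

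Itga7 has 2 kinds of variation. Its tail ends in the common form of Itga7-201 and Itga7-202 or in that of Itga7-204, a fragment of 984 bases. The alternative tail held 1.59, 0.763 and 1.06% of coding reads in MEFs, 11, 11.7 and 12.4% on day 8 of MyoD alone and 7.92, 8.42 and 10.9% with F/R/C. Over the 5 days it was 8.47% with MyoD alone and 7.23% with F/R/C, a difference of -1.25 points (exact within-day permutation, p = 0.00529, 0.0106 adjusted over 4 genes). It was lower with F/R/C in all but 3 of 15 same-numbered pairs. Without replicate 1 its difference was -0.68 points with an adjusted p of 0.215, and without replicate 2 the adjusted p was 0.0792. In sorted iMPCs it was 0.891, 1.74 and 1.61%, and 3.1, 2.08 and 4.05% in sorted myoblasts. The tail shares of Itga3 and Itga6 varied widely among replicates, with Itga3 at 0, 47.2 and 0% on day 10 with F/R/C, and their differences did not pass the test (exact permutation, adjusted p 0.375 and 0.192).

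The second variation of Itga7 lies in the part outside the cell, where Itga7-201 and Itga7-202 carry one or the other of a pair of exons known as X2 and X1. It was chosen for description after its values were seen, and has no test. The exon of Itga7-201 lies at chr10:128941822-128941941 (120 bases) and that of Itga7-202 at chr10:128941445-128941576 (132 bases), both on the plus strand of GRCm38. Their sequences are given because these letters are the main ones that tell reads of the 2 transcripts apart.
Itga7-201: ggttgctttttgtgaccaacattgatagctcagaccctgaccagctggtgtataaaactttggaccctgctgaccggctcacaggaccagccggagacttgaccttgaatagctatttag
Itga7-202: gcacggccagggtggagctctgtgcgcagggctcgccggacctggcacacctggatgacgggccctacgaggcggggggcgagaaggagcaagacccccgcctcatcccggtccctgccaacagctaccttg

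Of the reads of both transcripts, Itga7-201 held 23.4, 13.6 and 18.7% in MEFs. On day 2 it held 34.9, 30.8 and 31.8% with MyoD alone and 32.7, 34.5 and 32.4% with F/R/C, and on day 4 67.6, 70.5 and 66.2% and 73.2, 80.5 and 70.4%. Both treatments thus passed from a minority to a majority between days 2 and 4. The share was 95.4, 94.2 and 94.3% in bulk iMPCs, 90.4, 87.7 and 88.5% in sorted iMPCs and 79.8, 75.3 and 68.6% in sorted myoblasts, where the 2 sorted groups did not overlap. Bulk myoblasts varied most, at 78.4, 93.5 and 56.5%, with the lowest share in the replicate that had little Myog.

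**Figure D5:**
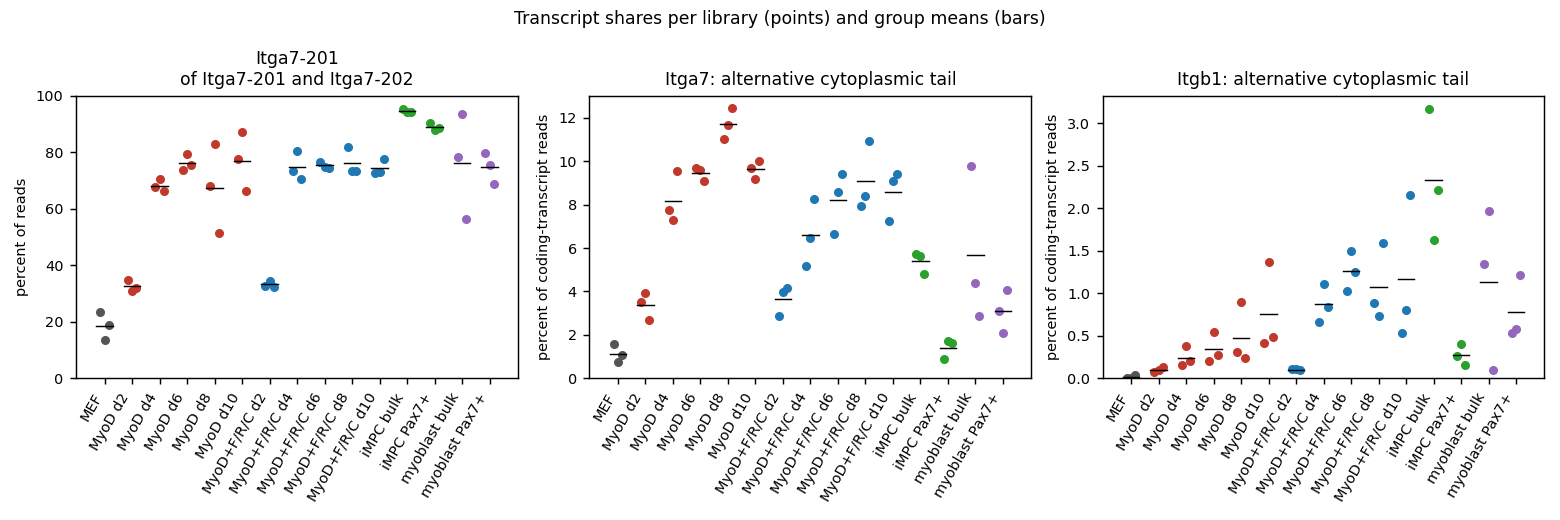
Share of Itga7-201 among reads of Itga7-201 and Itga7-202 (left), share of the alternative Itga7 tail (middle) and of the alternative Itgb1 tail (right) among coding-transcript reads, in percent, for the 15 groups (points are libraries, bars group means). The left panel climbs from MEFs to day 4 under both treatments, and the right panel is highest in bulk iMPCs.

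Genes around the receptors were read from 3 lists. Of 29 tested integrin adaptors, over the 5 days 7 were lower with F/R/C and 1 higher (27.6% called beside 22.1% of all genes), with a median log2 change of -0.60 against -0.03 over all genes. Tns1, a tensin, had -1.90, Actn1, which crosslinks actin, -1.50 and Pxn, the focal adhesion scaffold paxillin, -1.13 (all log2, adjusted p at most 1.32e-05 by edgeR's test for the 7 lower ones). Of 14 tested ligands other than laminins, 7 were lower and 1 higher (57.1%), with a median of -1.05. Fibronectin, Fn1, the ligand of Itga5 and Itgav, was at 19210, 11000 and 11590 CPM on day 10 of MyoD alone and 837, 323 and 590.2 CPM with F/R/C (over 5 days log2 change -3.69 with SE 0.34, adjusted p 7.47e-11). Thbs1, thrombospondin, had -2.81. Of 12 basement membrane partners 2 were lower and 2 higher (33.3%). Col4a5, a collagen IV chain, had -2.45, and Bcam, a receptor for Lama5, 1.48.

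Against MEFs, MyoD alone on day 2 had 7 of 29 adaptors higher and 1 lower, 27.6% called beside 22.4% of all genes. Itgb1bp2, melusin, a striated muscle protein that binds the beta1 tail, was at 1.19, 0.418 and 0.888 CPM in MEFs and 86.8, 116 and 96.4 CPM on day 2 (log2 change 6.90 with SE 0.75, adjusted p 1.39e-08). Npnt, nephronectin, the ligand of Itga8, was at 43, 24.2 and 34.7 CPM in MEFs and 253, 348 and 325 CPM on day 2 (log2 change 3.19 with SE 0.39, adjusted p 1.38e-07), while Itga8 itself was lower. Nid2, a nidogen that joins laminin to collagen IV, had 3.05, and Dag1, the dystroglycan laminin receptor of muscle, 1.70, and both were called. Neither list moved in 1 direction on that day. Of the 12 basement membrane partners 4 were higher and 2 lower (50% called). Of the 14 tested other ligands 2 were higher and 2 lower (28.6%), beside the same 22.4% of all genes. In sorted iMPCs against sorted myoblasts, 4 of 12 basement membrane partners were higher and 1 lower (41.7% called beside 30.0% of all genes): Agrn had 2.21, Col4a1 2.03, Col4a2 2.55 and Bcam 3.38 on the higher side, and Ntn4 -2.30 on the lower. Of the 29 adaptors 10 were lower and 1 higher there (37.9%), and of the 14 other ligands 9 were lower and 3 higher (85.7%), beside 17.6% lower and 12.4% higher among all genes.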

How the data were processed

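Poly-A RNA was sequenced from 45 libraries as single-end reads of 100 bases with a stranded mRNA kit, per the labels' protocols. The submitters' processing notes name bcl2fastq 2.19, Trimmomatic 0.36, kallisto 0.44, edgeR 3.28 and the build GRCm38.p6, with no role for each. The authors deposited, per the file headers, estimated counts and TPM for each of 121843 transcripts in each library. The transcript release and whether quantification used the strand are not given in the sources used here. For most transcripts with no reads the deposited effective lengths differ between the 6 sorted libraries and the others by a constant, and the effect of that difference cannot be told apart from that of sorting.

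Transcripts were assigned to GENCODE genes by their identifiers (121104 matched, with 99.36% to 99.78% of reads), and the estimated counts of a gene's transcripts were summed and rounded to whole numbers. Of the 37 members, 19 had whole sums in every library within 0.1 read. The other 18 had fractional sums in at least 1 library. Exons of 12 members overlap exons of another gene on either strand, and 4 members have such an overlap on their own strand. edgeR 4.0.16 (R 4.3.3) fitted the counts with TMM scaling, its own filter on low counts, 15 group terms and 30 residual degrees of freedom, and adjusted p-values by Benjamini-Hochberg over 17325 genes. Tail shares were tested by exact permutation within days. That test, like the fits averaged over 5 days, treats libraries of different days as independent. The script was tested on simulated data, where 121 of 200 genes changed 4-fold were called among 17123 genes for F/R/C against MyoD alone on day 10, with 1 false call. Alternatives were other size factors, no filter, DESeq2 1.42.0, a replicate block, only the groups compared, and leaving out replicates. Leaving out MEF replicate 1, bulk myoblast replicate 3 or day 10 MyoD replicate 3 was chosen after seeing the data.

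Same-numbered libraries deviated together for F/R/C against MyoD alone on day 2, with correlations of 0.346 to 0.375 over 3 pairs. The labels do not say what a replicate number shares. Members are all genes that match the symbol rule, and values of each library in the groups described are given for those called over the 5 days or in day 10 minus day 2, for up to 5 per direction with the largest fold change in each other comparison, and for 10 members named in any case (Itga7, Itgb1, Itga6, Itga5, Itgav, Lama2, Lama4, Lama5, Lamb1 and Lamc1). Other members named with values were chosen after their values were seen. A member and a listed gene are counted but not reported here. The members and the lists of pathway and marker genes were chosen with earlier results of these data known.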

Additional observations from a re-analysis of the deposited data

Results flagged for a closer look

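The effect of F/R/C differed between day 10 and day 2 for Itga6 and Itgav by edgeR's test of the difference itself. For Itga6 the log2 effect was -1.36 on day 2 and 0.43 on day 10, a difference of 1.79 (adjusted p 0.00696). For Itgav it was -1.33 and -2.83, a difference of -1.50 (adjusted p 0.0231). Both share the libraries of the 4 groups, and neither call held in every fit that left out a replicate number.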

How the results depend on the processing

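No called member changed sign under another scaling, filter, tool, block or left-out replicate, apart from Itga9 in sorted against bulk myoblasts without replicate 2. With each replicate number, MEF replicate 1, bulk myoblast replicate 3 or replicate 3 of MyoD alone on day 10 left out, the number of members called ranged from 10 to 16 for MyoD alone on day 2 against MEFs, 4 to 12 on day 10, 7 to 14 and 13 to 19 for F/R/C against MEFs, 2 to 9 and 9 to 17 for F/R/C against MyoD alone on days 2 and 10, 15 to 19 over 5 days, 0 to 5 for day 10 minus day 2, 0 to 6 for bulk iMPCs against day 10 of F/R/C, 11 to 17 against bulk myoblasts, 15 to 22 between sorted cells, 15 to 20 within iMPCs and 1 to 5 within myoblasts. The tail difference ranged from 0.305 to 0.667 points for Itgb1, -1.70 to -0.681 for Itga7, -7.93 to -1.44 for Itga3 and -7.09 to -2.01 for Itga6. When a fit held the compared groups alone, the counts were 9 for F/R/C against MyoD alone on day 10, 5 for day 10 minus day 2, 3 for bulk iMPCs against day 10 of F/R/C, 8 against bulk myoblasts and 0 within myoblasts, where fewer samples set the spread. Without the filter the count was 1 for day 10 minus day 2 and 2 for bulk iMPCs against day 10 of F/R/C, and the cause was not tested. Under a replicate block the count was 11 for F/R/C against MyoD alone on day 2, 18 over 5 days (Itgb7 gained, Lama1 lost) and 4 for day 10 minus day 2. Correlations of same-numbered pairs ran from 0.062 to 0.375 over the 15 pairs of the 5 days, with a mean of 0.265, and not every pair was over 0.1. With 3 libraries a group, the spread is estimated from few samples, and Itgal and Lama3 rest on few reads.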
